A study of Homo sapiens with 8 samples.

Results

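The genes described here are 10 components of the basement membrane: the laminin chain genes LAMA1, LAMA4, LAMA5, LAMB1, LAMB2 and LAMC1, the nidogen genes NID1 and NID2, and the proteoglycan genes AGRN (agrin) and HSPG2 (perlecan). They were taken by name, as chosen laminins outside laminin-332 and proteins that link to them, from a table of 32066 genes. LAMA2 and LAMC3, also outside laminin-332, belong to a separate list of other laminin chains described below. Of the 10, 9 had a row in the table and all 9 passed the filter on low counts. LAMA4 had no row and is not analysed here. RNA was sequenced from 8 libraries of DU145, an established epithelial line from a brain metastasis of prostate carcinoma: 4 of control cells and 4 of cells with exogenous SOX11, a SOX-family transcription factor. Both groups are this 1 line grown in DMEM with serum. The labels name neither the vector nor the promoter that carries SOX11, nor what the control cells received. They also do not say whether the 4 libraries of a group came from separate cultures, so p-values measure the spread between these libraries, which may be technical.

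The basement membrane is a thin sheet of extracellular matrix under epithelia. Laminins are cross-shaped trimers of an alpha, a beta and a gamma chain that assemble into a network on the cell surface, where integrins and dystroglycan hold them. Nidogens bind the laminin gamma1 chain and bridge it to the type IV collagen network. Agrin and perlecan carry heparan sulfate chains and tie laminin, collagen, growth factors and receptors together.

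Total counts were 14641250 to 18706095 per library. SOX11 itself had 0 counts in every control library and between 303 and 317 in each library of the other group, at least 404-fold above the level that 3 counts over the control group would give. The epithelial markers EPCAM, CDH1, KRT8, KRT18 and KRT19 were all expressed, with a summed level of 1497 to 1761 CPM (counts scaled to library size) in control and 1200 to 1206 CPM in SOX11 libraries. The summed levels of 6 fibroblast markers (3.33 to 5.43 CPM in control and 5.84 to 7.71 CPM in SOX11, mostly COL1A1), 6 endothelial markers (at most 1.04 CPM), 5 smooth muscle markers (at most 0.693 CPM) and 4 blood markers (at most 0.296 CPM) were low. DCN, LUM, DES, CD3E and HBB had no row. The epithelial sum was lower and the fibroblast sum higher in every SOX11 library than in every control library, and their part in the results was not tested. KRT8, KRT18 and KRT19 carried the epithelial fall, while EPCAM was at 43.5 to 46.1 CPM in control and 46.7 to 49.0 CPM in SOX11 libraries and CDH1 overlapped. Of the fibroblast markers, COL3A1 (0.289 and 0.0958 CPM) and PDGFRB (0.217 and 0.184 CPM) had a lower mean with SOX11.

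SOX11 replicate 1 stood apart from the other 7 libraries in luminal prostate genes. KLK3, which encodes prostate-specific antigen, was at 5.86 CPM there and at most 0.277 CPM elsewhere. Its neighbour KLK2 was at 9.93 CPM against at most 0.208 CPM, and the protease gene TMPRSS2 at 1.48 CPM against at most 0.0608 CPM. In that library 31 genes had at least 1 CPM and at most 0.25 CPM in each other library, and 0 genes did so in any of the other 7. Of the 9 measured basement membrane genes, 8 had their highest SOX11 value in this library and 1, NID1, its lowest. The margin was small in LAMC1 (375 CPM against 370 to 372 CPM). The same share over all tested genes is not given here, so the count is not read as a trait of this set. The changes of the measured set are therefore also given without SOX11 replicate 1.

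The promoters of 8 of the 10 genes were in the RefSeq table (GRCh38.p14), and LAMA1 and AGRN were not. The 250 bases before each RefSeq start were searched. Shown here are 4 of these windows, because they belong to both beta chain genes, which rose, to their partner chain gene LAMC1, which was not called, and to HSPG2, which fell. In LAMB1 and LAMB2 the 94 and 68 bases nearest the start lie inside the GENCODE gene and are left out. The stretches are chr7:108003256-108003411 (minus strand) for LAMB1, chr3:49133119-49133300 (minus) for LAMB2, chr1:183023170-183023419 (plus) for LAMC1 and chr1:21937311-21937560 (minus) for HSPG2. Capitals mark matches, on either strand, to ACAAT or AACAAAG, 2 short forms of the site that SOX proteins recognise (the second is also read by TCF/LEF factors), and to CCGCCC, the GC box bound by SP1.
LAMB1: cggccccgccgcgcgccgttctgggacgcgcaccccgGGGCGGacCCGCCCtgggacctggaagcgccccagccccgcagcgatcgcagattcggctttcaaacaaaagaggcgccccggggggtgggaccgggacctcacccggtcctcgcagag
LAMB2: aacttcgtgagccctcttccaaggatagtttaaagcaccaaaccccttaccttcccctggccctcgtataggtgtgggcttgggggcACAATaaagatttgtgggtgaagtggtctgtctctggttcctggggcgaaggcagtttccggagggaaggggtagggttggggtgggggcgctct
LAMC1: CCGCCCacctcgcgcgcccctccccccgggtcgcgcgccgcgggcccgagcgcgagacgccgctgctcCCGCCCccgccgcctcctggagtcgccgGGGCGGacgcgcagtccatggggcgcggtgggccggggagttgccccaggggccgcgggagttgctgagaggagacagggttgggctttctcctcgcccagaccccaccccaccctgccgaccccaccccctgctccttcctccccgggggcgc
HSPG2: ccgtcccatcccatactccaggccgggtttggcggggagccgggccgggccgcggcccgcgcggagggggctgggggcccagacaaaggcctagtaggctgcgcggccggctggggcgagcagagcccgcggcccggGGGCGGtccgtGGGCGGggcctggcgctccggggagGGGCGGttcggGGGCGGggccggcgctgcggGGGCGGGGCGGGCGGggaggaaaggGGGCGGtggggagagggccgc
The only ACAAT match among the 8 promoters was in LAMB2, beginning 163 bases before the start, and AACAAAG was in 0 of them. Over all 35116 promoters of the table, 24.6% held ACAAT and 4.50% AACAAAG in the same window. In the full windows CCGCCC was found 4 times in LAMB1 (2 of them in the stretch shown), 1 time in LAMB2 (0 in the stretch shown), 3 times in LAMC1 and 8 times in HSPG2, with overlapping copies in LAMB1 and HSPG2. Of all promoters, 42.6% held at least 1. The GC content of the full windows was 70.4% in LAMB1, 58.4% in LAMB2, 79.6% in LAMC1 and 82.8% in HSPG2. A match is only a run of letters, and no binding was measured.

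In SOX11-expressing cells, 3 laminin chain genes rose and the perlecan gene fell, while LAMA5, LAMC1 and AGRN, the most abundant of the set per length, were not called. LAMA1 rose by 37.6%, LAMB1 by 16.1% and LAMB2 by 12.9%, and HSPG2 fell by 12.0%. These 4 called genes of 9 tested (3 higher and 1 lower) stand beside 20% of all 15665 tested genes called, 10.3% higher and 9.67% lower. Of the 7863 genes whose mean reached 20 CPM, 26.0% were called, and among the 3960 genes with a transcript of at least 5000 bases, 25.4%. In 4 of the 9 genes the ranges of the control and SOX11 values did not overlap, against 21.1% of all tested genes. The median log2 fold change of the 9 genes was -0.01, beside 0.001 over all tested genes. A gene was called where edgeR's quasi-likelihood test gave an adjusted p under 0.05. Each log2 fold change is the SOX11 group minus the control group, ± SE. Levels are TMM-scaled CPM as mean ± SD (n = 4 per group).

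**Figure D1:**
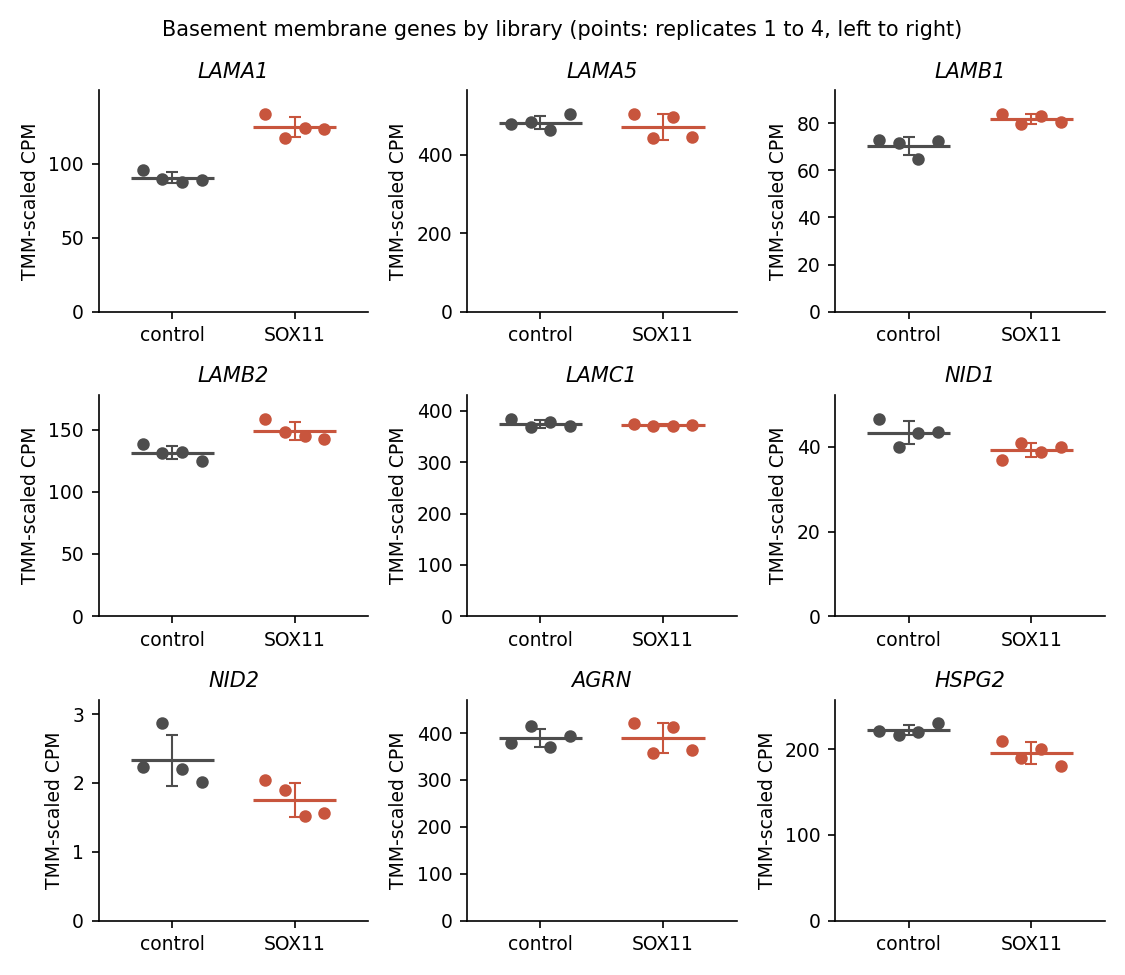
TMM-scaled CPM of the 9 measured basement membrane genes in each library (points, replicates 1 to 4 from left to right), with the mean (line) and SD (bar) of the 4 control and 4 SOX11 libraries. The groups are apart in LAMA1, LAMB1, LAMB2 and HSPG2 and overlap in the other 5 genes.

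LAMA1 (ENSG00000101680, chromosome 18, 6941744 to 7117814, minus strand, 62 exons in its longest transcript, GRCh38) encodes the alpha1 chain, which is typical of embryonic basement membranes. Its level was 95.8, 89.9, 87.3 and 88.9 CPM in control replicates 1 to 4 and 133, 117, 124 and 123 CPM in SOX11 replicates 1 to 4. Every SOX11 library was above every control library. The mean went from 90.5 ± 3.72 to 125 ± 6.60 CPM (log2 fold change 0.46 ± 0.0406, edgeR adjusted p = 6.25e-10). Without SOX11 replicate 1 the log2 fold change was 0.42 (edgeR adjusted p = 2.61e-08). The 95th percentile of all tested genes was 0.46, so LAMA1 was near the upper edge of the changes in this comparison.

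LAMA5 (ENSG00000130702, chromosome 20, 62307955 to 62367312, minus strand, 80 exons) encodes alpha5, the broadly expressed alpha chain of adult epithelial and vascular basement membranes. It was at 477, 483, 464 and 503 CPM in control and at 503, 442, 497 and 445 CPM in SOX11 libraries. The groups overlapped, with SOX11 replicates 1 and 3 high and replicates 2 and 4 low. The means were 482 ± 16.3 and 472 ± 33.0 CPM (log2 fold change -0.03 ± 0.0394, 95% interval -0.11 to 0.05, edgeR adjusted p = 0.646). Without SOX11 replicate 1 the log2 fold change was -0.07 (edgeR adjusted p = 0.268). The 95% interval of LAMA1, 0.38 to 0.54, lay wholly above this one.

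LAMB1 (ENSG00000091136, chromosome 7, 107923799 to 108003255, minus strand, 32 exons) encodes beta1, the most widespread beta chain. It was at 73.0, 71.4, 64.6 and 72.4 CPM in control and at 83.8, 79.5, 83.1 and 80.5 CPM in SOX11 libraries. All SOX11 values lay above all control values, of which replicate 3 was the lowest. The means were 70.4 ± 3.88 and 81.7 ± 2.05 CPM (log2 fold change 0.21 ± 0.0425, edgeR adjusted p = 0.000384, and 0.20 without SOX11 replicate 1). LAMB2 (ENSG00000172037, chromosome 3, 49121114 to 49133118, minus strand, 33 exons) encodes beta2, best known from the kidney filter and the neuromuscular junction. Its level was 138, 131, 132 and 125 CPM in control and 159, 148, 145 and 142 CPM in SOX11 libraries. The groups did not overlap, with SOX11 replicate 1 the highest. The means were 132 ± 5.46 and 148 ± 7.22 CPM (log2 fold change 0.17 ± 0.0382, edgeR adjusted p = 0.00119, and 0.14 without SOX11 replicate 1).

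LAMC1 (ENSG00000135862, chromosome 1, 183023460 to 183145592, plus strand, 28 exons) encodes gamma1, the gamma chain of most laminins and the one that nidogens bind. It was at 385, 368, 378 and 370 CPM in control and at 375, 371, 370 and 372 CPM in SOX11 libraries. The SOX11 values lay within the control range. The means were 375 ± 7.58 and 372 ± 2.13 CPM (log2 fold change -0.01 ± 0.0290, 95% interval -0.07 to 0.05, edgeR adjusted p = 0.827, and -0.02 without SOX11 replicate 1).

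The nidogen genes were lower in the SOX11 libraries on average, and neither was called. NID1 (ENSG00000116962, chromosome 1, 235975830 to 236065162, minus strand, 20 exons) was at 46.7, 40.0, 43.3 and 43.5 CPM in control and at 37.0, 40.9, 38.9 and 40.0 CPM in SOX11 libraries. The groups overlapped through control replicate 2 and SOX11 replicate 2. The means were 43.4 ± 2.72 and 39.2 ± 1.66 CPM (log2 fold change -0.14 ± 0.0526, edgeR adjusted p = 0.0522). NID1 passed the threshold without control replicate 2 (edgeR adjusted p = 0.0213) or SOX11 replicate 2 (0.0348), and missed it more widely without SOX11 replicate 1 (log2 fold change -0.12, 0.156). It also passed with RLE factors (0.0484), with no filter on low counts (0.0428) and with the length and GC offsets given below (0.00406). In the other fits that left out a library NID1 was not called (0.0627 to 0.188, the highest without control replicate 1). Nor was it called with DESeq2 (0.0984), limma-voom (0.0629), the replicate number as a block (0.0864), upper quartile factors (0.0681) or the stricter filter (0.0536). NID2 (ENSG00000087303, chromosome 14, 52004803 to 52069228, minus strand, 22 exons) was at 2.24, 2.87, 2.20 and 2.01 CPM in control and at 2.04, 1.89, 1.52 and 1.56 CPM in SOX11 libraries. These overlapping values rest on 263 counts over all 8 libraries (log2 fold change -0.42 ± 0.190, edgeR adjusted p = 0.123, and -0.50 without SOX11 replicate 1). NID2 shares 1915 exon bases with RTRAF on the opposite strand, which had 32011 counts, and the sources used here do not give the strand setting of the counting. The part of RTRAF in the NID2 counts was not tested. Exons of LAMA5 (with ADRM1, 244 bases), LAMB1 (with DLD, 70 bases), HSPG2 (with LDLRAD2, 0 counts) and LAMA1 (with AP002409.1, 0 counts) also overlap a gene on the opposite strand. DLD had 13067 counts beside 9753 for LAMB1, and ADRM1 had 17585 beside 61054 for LAMA5. The part of these genes in the counts was not tested.

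Of the heparan sulfate proteoglycan genes, HSPG2 was called and AGRN was not, and the difference between their changes was not tested. HSPG2 (ENSG00000142798, chromosome 1, 21822245 to 21937297, minus strand, 97 exons) encodes perlecan, which stores growth factors in the matrix. Its level was 221, 217, 220 and 230 CPM in control and 210, 190, 200 and 181 CPM in SOX11 libraries. All SOX11 values lay below all control values. The means were 222 ± 5.86 and 195 ± 12.6 CPM (log2 fold change -0.18 ± 0.0377, edgeR adjusted p = 0.000609, and -0.22 without SOX11 replicate 1). AGRN (ENSG00000188157, chromosome 1, 1020123 to 1056118, plus strand, 39 exons) encodes agrin, which binds laminin and dystroglycan and organises the neuromuscular junction. It was at 380, 414, 369 and 394 CPM in control and at 421, 358, 413 and 364 CPM in SOX11 libraries. The highest and the lowest of the 8 values were both SOX11 libraries. The means were 389 ± 19.5 and 389 ± 32.6 CPM (log2 fold change -0.0012 ± 0.0550, 95% interval -0.12 to 0.12, edgeR adjusted p = 0.992). The sign of this difference turned under some alternatives and was positive without SOX11 replicate 2 (0.04). Without SOX11 replicate 1 it was -0.04.

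**Figure D2:**
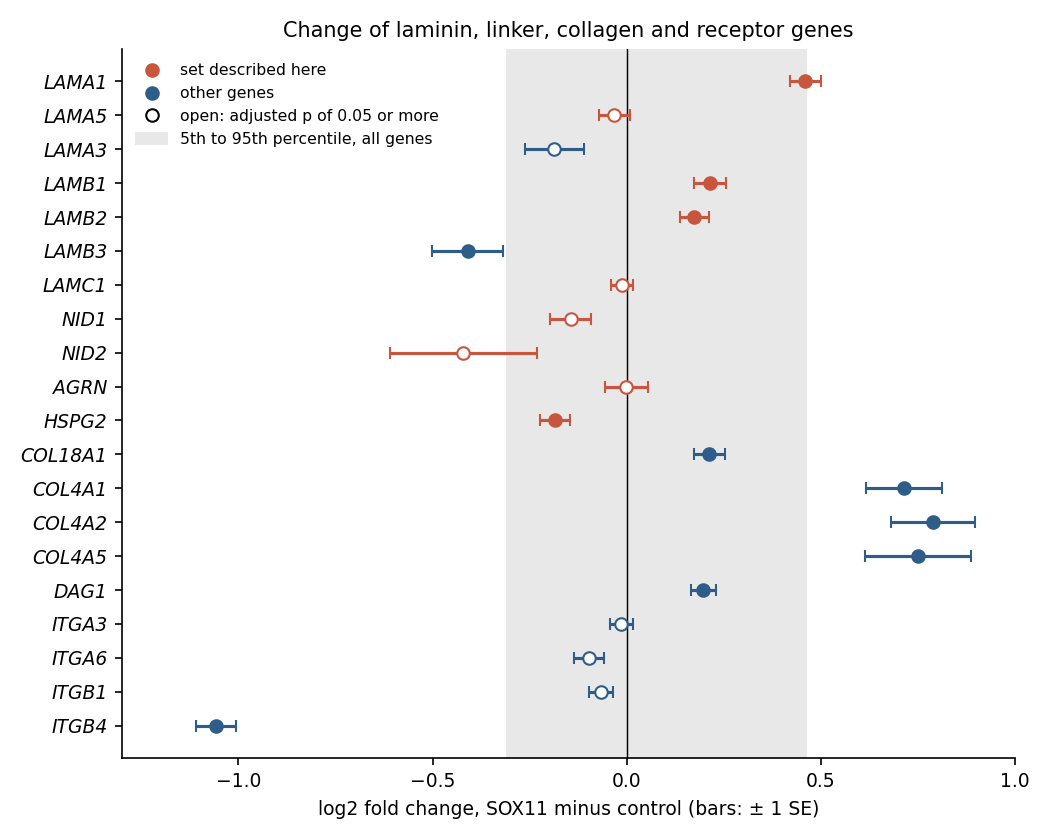
Log2 fold change (SOX11 minus control, bars ± 1 SE) of the basement membrane genes described here (red) and of other laminin, collagen and receptor genes (blue), filled where the edgeR adjusted p was below 0.05. The grey band holds the middle of all tested genes, from the 5th percentile (-0.31) to the 95th (0.46), and LAMA1 lies at its upper edge.

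The set holds several transcripts rich in G and C. The longest transcript was 67.5% GC in AGRN, 66.4% in LAMA5, 64.5% in HSPG2 and 60.3% in LAMB2, against 48.7% to 51.7% in LAMC1, LAMB1, LAMA1 and NID1 and 52.0% in NID2. Over 257 other genes with at least 60% GC and at least 5000 bases, the median log2 level relative to the mean of the 8 libraries was 0.09, -0.06, 0.07 and -0.01 in SOX11 replicates 1 to 4. AGRN, LAMA5 and HSPG2 likewise had SOX11 replicates 1 and 3 above replicates 2 and 4, while LAMB2 did not (replicate 2 was above replicate 3). Outside the GC-rich transcripts of this set, LAMA1 (50.5% GC) and LAMB1 (49.5%) had this order too, and LAMC1, NID1 and NID2 did not. Over 2694 other genes of that length with under 50% GC, the order of the median was reversed. It was -0.005, 0.039, -0.002 and 0.014 in SOX11 replicates 1 to 4, so replicates 1 and 3 were below replicates 2 and 4. In control the median of the GC-rich genes ran from -0.05 to 0.01, and HSPG2 did not follow its order. With offsets for transcript length and GC content, the 3 rises and the fall of HSPG2 kept their calls and LAMA5 (log2 fold change -0.15, edgeR adjusted p = 0.000258), AGRN (-0.11, 0.0096) and NID1 (-0.20, 0.00406) were called lower as well. HSPG2 moved to -0.30 and LAMB2 to 0.10 under these offsets. They also shifted the median of all genes to -0.03 and the split of all calls to 1282 higher and 2520 lower, against 1615 and 1515 without them.

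**Figure D3:**
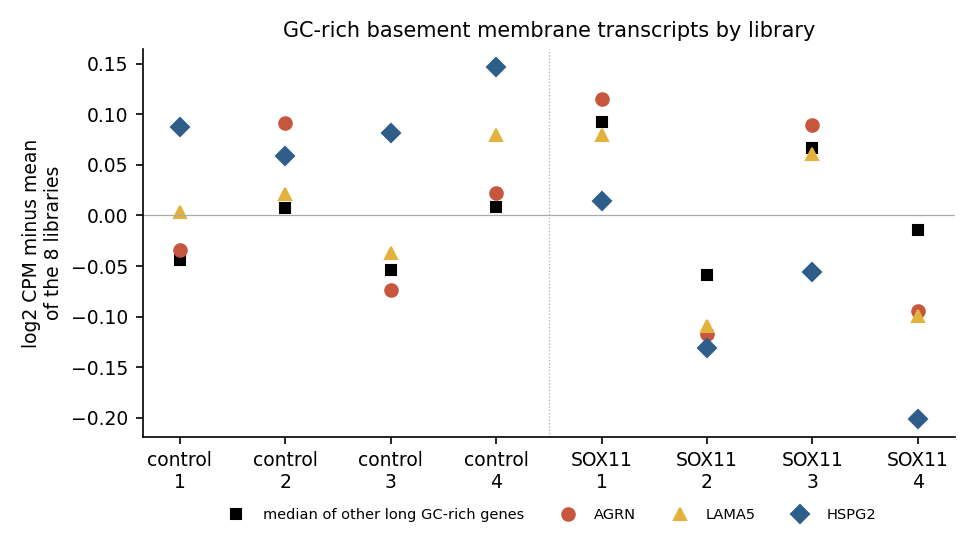
Log2 CPM of AGRN, LAMA5 and HSPG2 in each library minus the gene's mean over the 8 libraries, with the median of 257 other long GC-rich genes (squares). In the SOX11 group all 4 series are higher in replicates 1 and 3 than in replicates 2 and 4, and HSPG2 is lower in every SOX11 library than in every control library.

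Levels of different genes were compared as CPM per kilobase of annotated exon. In control the order was LAMC1 (43.8 to 45.8), AGRN (34.3 to 38.5), LAMA5 (32.5 to 35.2), LAMB2 (18.2 to 20.1), HSPG2 (12.0 to 12.7), LAMB1 (7.94 to 8.97), NID1 (6.83 to 7.96), LAMA1 (5.50 to 6.04) and NID2 (0.314 to 0.449). AGRN and LAMA5, and LAMB1 and NID1, overlapped in their ranges and were not separated. In SOX11 libraries LAMA1 (7.39 to 8.40) stood above NID1 (6.31 to 6.97), and HSPG2 (10.00 to 11.6) overlapped LAMB1 (9.77 to 10.3). With the length of the longest transcript in place of all exons, AGRN came first (52.7 in control) and LAMC1 second (47.6). LAMA1 (8.72) then stood above NID1 (7.40) in control too, and in SOX11 libraries LAMB1 (14.2) above HSPG2 (13.6).

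The shares of the chains followed from these levels and are given without a test. They depend on the length used: recomputed with the longest transcript or with other scaling, 24 share values stayed the same and 12 moved. LAMA1 made up 9.39% to 9.74% of the summed alpha chain level (LAMA1, LAMA2, LAMA3 and LAMA5, per kilobase) in control and 13.0% to 14.1% in SOX11 libraries. LAMA5 was the largest part in both, at 53.9% to 59.1% and 54.2% to 58.6%. LAMA3, the alpha chain of laminin-332, an epithelial anchoring laminin, took 30.6% to 35.7% and 27.7% to 32.2%. Among beta chains, LAMB1 held 6.72% to 7.48% in control libraries and 9.31% to 10.4% with SOX11, and LAMB2 held 13.9% to 16.9% and 19.3% to 23.1%. LAMB3, the beta chain of laminin-332, still held the most, at 75.7% to 79.3% and 66.5% to 71.4%. Shares of a family add up to a fixed whole, so the fall of LAMB3 by 24.7% also raises the shares of LAMB1 and LAMB2. Their own levels rose by 16.1% and 12.9%. The groups were apart for LAMA1 and for each of these 3 beta chain genes, and overlapped for LAMA3 and LAMA5. NID1 held 93.8% to 95.9% of the nidogen level in control and 95.2% to 96.5% in SOX11 libraries.

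**Figure D4:**
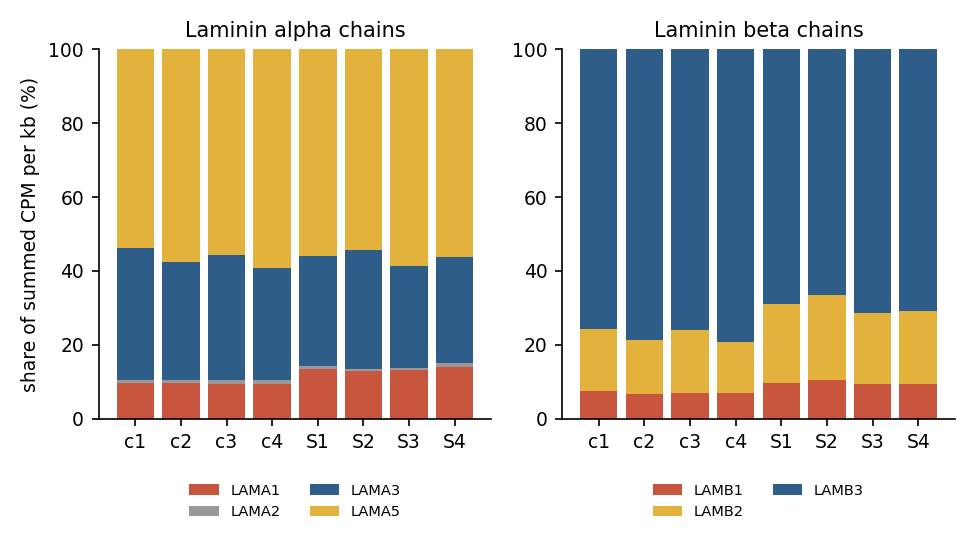
Share of each laminin chain gene in the summed CPM per kilobase of its family (alpha or beta) in control (c1 to c4) and SOX11 (S1 to S4) libraries. LAMA1, LAMB1 and LAMB2 take larger shares in every SOX11 library than in every control library.

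Of the other laminin chain genes listed, among them LAMA3 and LAMB3 of laminin-332, 0 of 4 tested genes were higher and 1 lower. LAMB3 fell from 450 ± 39.8 to 339 ± 32.7 CPM (log2 fold change -0.41 ± 0.0911, edgeR adjusted p = 0.0206). The LAMB3 call ended with the replicate number as a block (edgeR adjusted p = 0.0611) and without control replicate 2 (0.0521). LAMA3 was at 290 ± 24.8 and 255 ± 21.2 CPM (edgeR adjusted p = 0.130) and was called lower without a filter on low counts (8.04e-06), with limma-voom (0.0120), with that block (0.000739) and with the length and GC offsets (0.0400). The median log2 fold change of these 4 genes was -0.22.

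Of the basement membrane collagens, 4 of 6 tested genes were higher and 0 lower, with a median log2 fold change of 0.46. COL4A1 and COL4A2, which form the common type IV collagen trimer, rose together. COL4A1 was at 36.5, 36.5, 31.1 and 36.9 CPM in control and at 56.1, 47.7, 64.2 and 64.1 CPM in SOX11 libraries. COL4A2 was at 80.6, 86.2, 80.1 and 95.6 CPM in control and at 142, 124, 164 and 162 CPM in SOX11 libraries. Neither gene's groups overlapped, and SOX11 replicate 2 was the lowest of its group in both. The log2 fold changes were 0.71 ± 0.0977 for COL4A1 (edgeR adjusted p = 0.000472) and 0.79 ± 0.108 for COL4A2 (0.00228). COL4A5 (0.75) and COL18A1 (0.21), which encodes a collagen with heparan sulfate chains, rose as well, and COL18A1 shares exon bases with SLC19A1 on the opposite strand. With the length and GC offsets the COL18A1 change was 0.12 (edgeR adjusted p = 0.0077).

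Other basement membrane proteins had 6 of 10 tested genes higher and 2 lower, with a median of 0.53. The higher genes of this list that are not named here were scarce, with control means of 0.394 to 7.16 CPM. FBLN1, the matrix protein fibulin-1, had 13.5 ± 1.04 CPM in control and rose to 25.4 ± 1.09 CPM (log2 fold change 0.92). MATN2, an adaptor protein of matrix networks, rose too (0.51). TINAGL1 fell from 57.7 ± 3.26 to 38.9 ± 1.24 CPM (-0.57) and NTN4, a netrin that binds the laminin gamma1 chain, from 128 ± 4.17 to 95.8 ± 3.78 CPM (-0.42). The edgeR adjusted p of these 4 genes ran from 1.88e-11 for FBLN1 to 8.93e-09 for MATN2.

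Among laminin and agrin receptors, 2 of 12 tested genes were higher and 3 lower (median -0.04). DAG1, the gene of dystroglycan, rose from 221 ± 4.87 to 254 ± 6.52 CPM (log2 fold change 0.20 ± 0.0316, edgeR adjusted p = 2.28e-05), with no overlap between the groups. ITGB4, the beta subunit of the hemidesmosome integrin, fell (-1.06), and so did RPSA (-0.12), a ribosomal protein gene also described as a laminin receptor, and the tetraspanin gene CD151 (-0.13). The CD151 call ended without SOX11 replicate 2 (edgeR adjusted p = 0.0505), and CD151 shares exon bases with POLR2L on the opposite strand. The other integrin subunit genes fixed by name were not called: ITGA3 was at 853 ± 8.79 and 845 ± 31.8 CPM, ITGA6 at 107 ± 4.84 and 99.8 ± 2.05 CPM and ITGB1 at 1393 ± 46.6 and 1331 ± 46.6 CPM. ITGA6 was called lower without control replicate 4 (edgeR adjusted p = 0.0461) and ITGB1 without SOX11 replicate 2 (0.0368). With the length and GC offsets ITGA3 (0.0173), ITGA6 (0.00352) and ITGB1 (0.0246) were all called lower.

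Cell surface heparan sulfate proteoglycans had 2 of 6 tested genes higher and 2 lower (median -0.01). The glypican gene GPC2 rose (log2 fold change 1.56, from 3.25 ± 0.470 to 9.73 ± 0.354 CPM), as did the syndecan gene SDC2 (1.33, from 0.710 ± 0.207 to 1.77 ± 0.222 CPM), while the more abundant SDC1 (-0.24) and SDC4 (-0.14) fell. Of the enzymes that make and remodel heparan sulfate, 2 of 15 tested genes were higher and 1 lower (median 0.02). NDST1, which starts the sulfation of the chain, rose from 201 ± 12.3 to 265 ± 23.9 CPM (log2 fold change 0.40 ± 0.0657, edgeR adjusted p = 0.00173). UGDH (-0.12), which makes the UDP-glucuronic acid precursor and shares exon bases with UGDH-AS1, lost its call without control replicate 1 or 3 or SOX11 replicate 1, 3 or 4 (edgeR adjusted p from 0.0506 to 0.0993). B3GAT3 (0.16), an enzyme of the linker sugars, lost its call without control replicate 2 or 4 or SOX11 replicate 1 or 3 (0.0506 to 0.0898), with DESeq2 (0.0575) and with the length and GC offsets (0.0508).

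Genes for the glycosylation of dystroglycan, by which it binds laminin, agrin and perlecan, had 1 of 12 tested genes higher and 0 lower (median 0.06). That gene, POMT2 (0.15), lost its call without control replicate 3 (edgeR adjusted p = 0.0875), SOX11 replicate 3 (0.0917) or SOX11 replicate 4 (0.0502) and with the length and GC offsets (0.145). Over all 7 lists, 17 of 65 tested genes were higher and 9 lower, beside 10.3% and 9.67% of all tested genes. With the length and GC offsets the same 65 genes gave 14 higher and 16 lower, beside 1282 higher and 2520 lower of all 15665 tested genes. Without SOX11 replicate 1, UGDH and B3GAT3 were the only called genes named from these lists that lost their call, and each kept its direction.

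**Figure D5:**
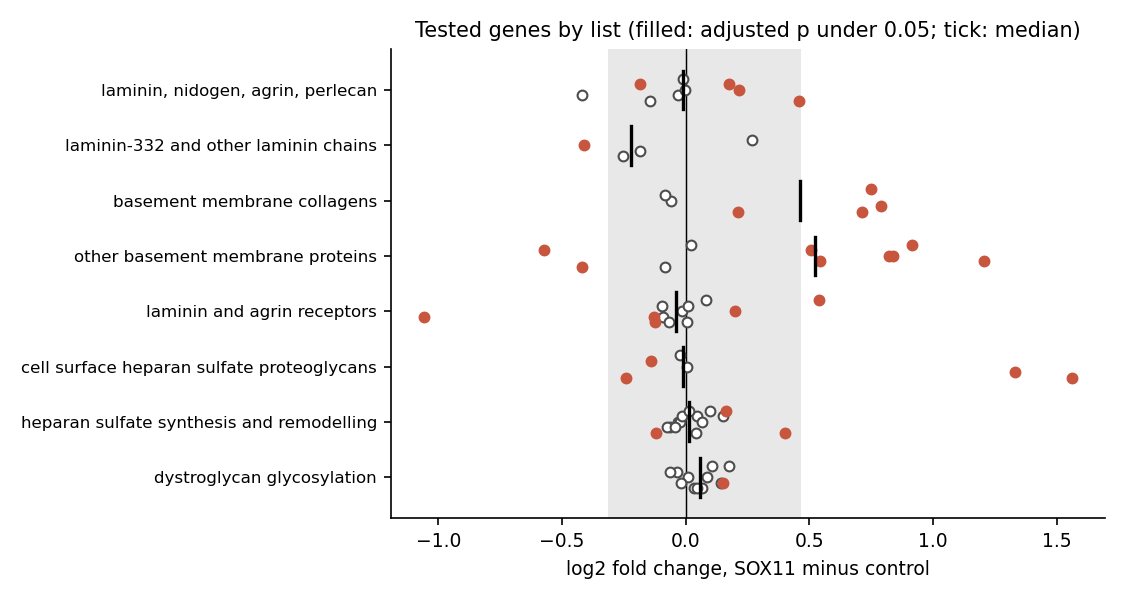
Log2 fold change (SOX11 minus control) of each tested gene in the set described here (top row) and in 7 related gene lists, filled where the edgeR adjusted p was below 0.05, with the median of each list as a tick and the 5th to 95th percentile of all tested genes in grey. The basement membrane collagens (median 0.46) and the other basement membrane proteins (0.53) lie mostly to the right, and the other laminin chains (-0.22) mostly to the left.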

How the data were processed

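RNA sequencing counts were analysed for 8 DU145 libraries, 4 control and 4 with exogenous SOX11. Libraries were made from poly(A) RNA with a stranded kit, per the labels' protocols. The authors deposited raw counts per Ensembl gene, without normalization. Per the submitters' processing notes, cutadapt, FastQC, STAR 2.7.0e and GRCh38 were used. For the counter, its strand setting and the annotation, nothing is given in the sources used here. Symbols matched 32053 of 32066 identifiers. Exon lengths, GC content and coordinates came from GENCODE 29 (GRCh38), which may differ from the authors' annotation.

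Genes passing filterByExpr (minimum count 10) were scaled with TMM and tested with edgeR 4.0.16 (robust quasi-likelihood, group only, R 4.3.3). P-values were adjusted by Benjamini-Hochberg over 15665 genes. The floor for SOX11 is 3 counts over the control group and, like other limits from counts, covers counting error only. Alternatives were RLE and upper quartile factors, no filter and a stricter one, DESeq2 1.42.0, limma-voom (limma 3.58.1), the replicate number as a block, length and GC offsets (known for 15210 tested genes), and each library left out in turn. Scripts were tested on simulated counts. Chi-square statistics per degree of freedom exceeded 1.4 for every pair of libraries, so none was counted as a repeat.

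The members, lists and alternatives were chosen with earlier results of these data known. All members were named, then per list the called genes with the lowest adjusted p (4 at most), or the most abundant gene where none was called, and 9 laminin, collagen and receptor genes fixed by name. The luminal genes of SOX11 replicate 1 were looked at more closely after their values were seen. Some listed genes are not reported here. Protein sequences were not used here.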

Additional observations from a re-analysis of the deposited data

Results flagged for a closer look

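COL4A1 in control replicate 3 was at 31.1 CPM, while the other 3 control libraries were at 36.5 to 36.9 CPM, a gap of 0.918 of the group's range, above Dixon's 95% critical value for 4 samples. It was the 1 such case among 69 groups of 4 libraries looked at, and chance alone gives about 1 such case in every 20 groups.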

How the results depend on the processing

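The fits gave 16 alternatives for each gene. LAMA1, LAMB1 and LAMB2 stayed higher and HSPG2 stayed lower with their calls in all 16, with an adjusted p of at most 3.92e-08, 0.0047, 0.0341 and 0.00446. The number of called members was 4 to 5 in the fits without a library and in the other settings, except the length and GC offsets, which gave 7. Fits without a library called 2466 to 3057 genes in all and 22 to 26 of the 65 list genes. The AGRN difference, -0.0012, became 0.0054 with upper quartile factors, 0.0004 under the stricter filter, and between -0.0426 and 0.0365 when libraries were left out: it was positive when control replicate 2 or 4, or SOX11 replicate 2 or 4, was dropped. Leaving out libraries moved ITGA3 (-0.01) between -0.0373 and 0.0020, positive when SOX11 replicate 2 was dropped. DESeq2 called 2407 genes, 1165 higher and 1242 lower. With the replicate block 2899 genes and the same number of members, 4, were called, and LAMB3 (log2 fold change -0.41, adjusted p = 0.0611) and LAMA3 (0.000739) changed sides of the threshold. Deviations of same-numbered libraries had correlations of -0.07 to 0.11 over genes, and those of other pairs -0.09 to 0.08. Whether same-numbered libraries share a culture or day was not tested. Precision is limited for NID2 by its 263 counts, and the standard error of AGRN (0.0550) was above those of the other measured members except NID2.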
